A study of Homo sapiens with 3 samples.

Results

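Of 5680 human transcripts measured by ribosome profiling in HEK293T cells, 404 carried a higher ribosome density past their stop codon than inside their coding sequence (CDS) once the cells had been kept in G418. They were chosen by this readout. A transcript had to be listed in all 3 libraries (8812 transcripts), to pass a minimum of CDS reads averaged over the libraries, to leave no fewer than 18 nt for the readthrough region, and to show a readthrough density above its CDS density in the G418 library. The readthrough region runs from the normal termination codon (NTC) through the first in-frame stop codon of the 3′UTR, the 3′TC, and the 6 nt next to the NTC are not counted. The ratio of both densities is the ribosome readthrough score (RRTS), so a value of 1 means as many ribosomes per nucleotide after the NTC as before it. The other 5276 transcripts within the same limits serve as the comparison.

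HEK293T is an established line of human embryonic kidney origin with the SV40 large T antigen. In ribosome profiling, mRNA fragments shielded from nuclease by ribosomes are sequenced. The Untreated group had 2 libraries, A and B, and the G418 group had 1, from cells given 500 µg/mL of the aminoglycoside for 24 h. No difference between the conditions could therefore be tested, and every value below is a description with its counting error. Of the genes looked up for HEK293T, VIM had a CDS density between 1710 and 2163 RPKM (reads per kilobase, scaled to library size). LIN28B, NEFL and NEFM were listed in all 3 libraries, and PAX2 was listed in Untreated B alone. ALB, PTPRC, CD3E, MYH7 and INS, looked up for other tissues, were listed in none. These listings do not identify the line. The RPM scale, which sets libraries to a common total, rested on 5857230, 9477972 and 7216039 reads in Untreated A, Untreated B and G418 A. On the 404 members lay 132826, 219888 and 165324 CDS reads in that order. Densities are averages over a culture, so fewer translating cells and fewer ribosomes per cell cannot be told apart.

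Termination begins when a stop codon enters the ribosomal A site, where eRF1 recognises it and releases the peptide. A near-cognate tRNA can compete with eRF1 and let the ribosome continue in frame, which is called stop codon readthrough. G418 binds the decoding centre of the ribosome and favours acceptance of near-cognate tRNAs. The identity of the stop codon and the nucleotides that follow it are known to set how often this happens: UGA is the leakiest stop codon, UAA the tightest, and a C in the next position (+4) favours readthrough.

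The stop codon contexts of the members with the most readthrough reads are printed here, because members and other transcripts are compared on the stop codon and the +4 nucleotide further on. Each shows 15 nt before the NTC, the NTC and 12 nt after it, as the GENCODE 44 transcript on hg38 gives it, with T for U. Capitals mark the stop codon and the +4 nucleotide, and the coordinates are those of the stop codon on hg38. The leading members with a UGA, then UAG, then UAA stop codon were as follows.
BASP1 (chr5:17275898-17275900, plus strand, exon 2 of 2): gtaaccgtgaaagagTGACaaggacagcct
MT2A (chr16:56609352-56609354, plus strand, exon 3 of 3): tgcagctgctgcgccTGATgctgggacagc
AKIRIN1 (chr1:39004053-39004055, plus strand, exon 5 of 5): acaagctatgtgtcaTGAAgctttgtcaca
TRMT112 (chr11:64316861-64316863, minus strand, exon 4 of 4): gaggaaactgagagtTGATtgtgccaggcg
DBNDD2 (chr20:45410138-45410140, plus strand, exon 4 of 4): cctggagcctgcagcTAGCagtgggcccct
LLPH (chr12:66123840-66123842, minus strand, exon 3 of 3): aagggtttggcctggTAGActcttaaaacc
IMP3 (chr15:75639614-75639616, minus strand, exon 1 of 1): ttcgatctggaagccTAGCggatctcccac
NPTN (chr15:73561910-73561912, minus strand, exon 8 of 9): cagagaaacacaaatTAAGtactgcttaca
CCDC59 (chr12:82353151-82353153, minus strand, exon 4 of 4): atacaagaaaaatgtTAAAcattttgttcc
CDC27 (chr17:47120935-47120937, minus strand, exon 19 of 19): gaaagtgatgaatttTAACttctggaaatc
The 6 members with the highest RRTS in G418 among those with at least 50 readthrough reads, TRMT112 above and the following 5, ended in UGA.
ATG12 (chr5:115831804-115831806, minus strand, exon 4 of 4): tctcaggcgtggggaTGAAccacaaagaaa
MRPL53 (chr2:74472119-74472121, minus strand, exon 3 of 3): gctgatactggtcgcTGACagcgccaaaga
EMC6 (chr17:3669477-3669479, plus strand, exon 2 of 2): atggtgcacgtctacTGAAatgggggcccg
SPCS1 (chr3:52707810-52707812, plus strand, exon 4 of 4): catgctaaaaataatTGAGgttttcatgat
MZT1 (chr13:72710322-72710324, minus strand, exon 3 of 3): gaaaatatgacaagcTGACtttctggagaa

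In the G418 library the members held 7139 readthrough reads where 4968 would give an RRTS of 1, a pooled RRTS of 1.44 (exact 95% Poisson interval 1.40 to 1.47). The other transcripts held 71023 reads where 361668 would give 1, a pooled RRTS of 0.196. The members are the 7.11% of transcripts that passed the limit, and their RRTS was what chose them, so nothing is read from these values. Most lay close to the limit. The RRTS was between 1 and 1.5 for 220 members, between 1.5 and 2 for 104, between 2 and 3 for 55, between 3 and 5 for 17 and above 5 for 8, and the median was 1.42.

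Many members rested on few reads. The median member had 10 readthrough reads in G418. There were 75 members with 1 to 4 reads, 126 with 5 to 9, 107 with 10 to 19, 66 with 20 to 49 and 30 with 50 or more. For 81 members the lower limit of the exact 95% Poisson interval of the readthrough reads, over the reads expected at the CDS density, was above 1. The counting error of the CDS reads is not in this interval. For the other 323 the RRTS could not be told apart from 1 at this depth. FBN1, HERC2, RTTN, TTC28 and ZNF746, named after their values were seen, had 1 read each in regions of 18 to 27 nt.

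**Figure D1:**
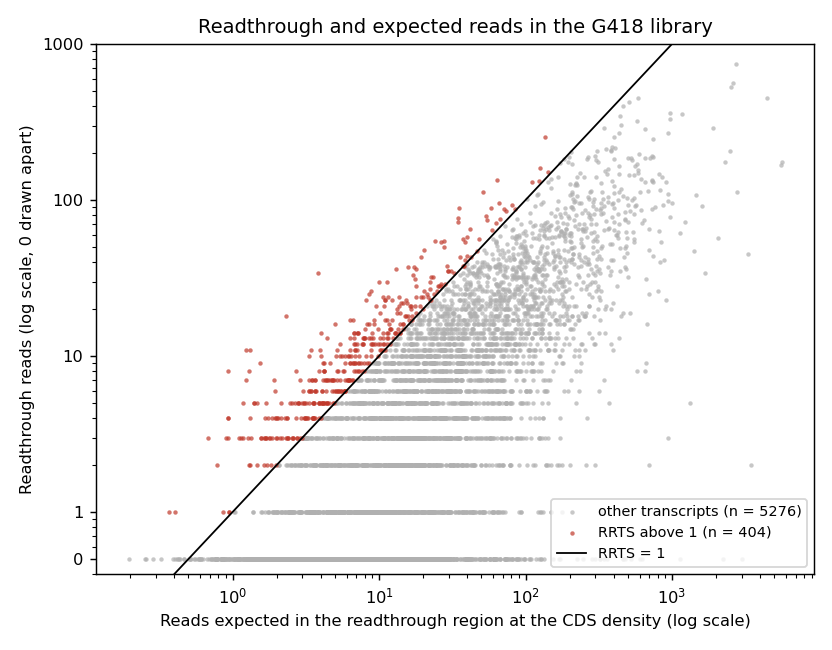
Readthrough reads (vertical axis) against the reads expected in the readthrough region at the density of the transcript's own CDS (horizontal axis) in the G418 library, both on log scales, with transcripts at 0 reads drawn below 1. The 404 members (red) lie above the line of RRTS 1 by definition and the 5276 others (grey) on or below it, and the members thin out as the expected reads grow, with 53 of 284 transcripts at up to 2 expected reads and 5 of 792 above 100.

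The values at the limit show how little separates members from others there. Among transcripts with at least 20 readthrough reads, CITED2 (RRTS 1.002, 38 reads), IWS1 (1.002, 20 reads) and STX5 (1.009, 23 reads) lay just inside. ANAPC16 (0.998, 102 reads), COX5B (0.996, 172 reads) and NACA (0.990, 182 reads) lay just outside. All 6 counting intervals included 1.

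BASP1, a membrane-associated protein of growth cones and a transcriptional cofactor of WT1, had the most readthrough reads of any member, 254 in G418 against 3 in Untreated A and 2 in Untreated B. Its RRTS was 1.87 (1.65 to 2.12) in G418 and 0.0214 and 0.00592 in the untreated libraries. The region is 255 nt long, far above the members' median of 42 nt.

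ATG12, the ubiquitin-like protein conjugated to ATG5 in autophagy, had the highest RRTS among the members with at least 50 reads. It had 89 readthrough reads in G418, 1 in Untreated A and 0 in Untreated B, and an RRTS of 2.53 (2.03 to 3.11) in G418. MRPL53, a protein of the large mitochondrial ribosomal subunit, had 55 reads in G418 and 6 and 8 in the untreated libraries, with an RRTS of 2.28 (1.72 to 2.97), 0.245 and 0.179. EMC6, a subunit of the ER membrane protein complex, had 77 reads in G418 and 4 and 0 in the untreated libraries, with an RRTS of 2.22 (1.75 to 2.77) in G418. SPCS1, a subunit of the signal peptidase complex, had 113 reads against 5 and 2, with an RRTS of 2.20 (1.81 to 2.65). These 4 were picked for their high G418 values, so their distance from the untreated values is a description.

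TRMT112, the activating partner of several methyltransferases, had 135 readthrough reads in G418 and 4 and 1 in the untreated libraries, with an RRTS of 2.11 (1.77 to 2.50) in G418. MZT1, which helps recruit γ-tubulin complexes, had 72 reads against 7 and 7, and an RRTS of 2.08 (1.63 to 2.62). The kinetochore protein ZWINT had 55 reads against 12 and 9. Its RRTS was 1.97 in G418 and 0.556 and 0.216 in the untreated libraries, so its untreated levels were well above those of BASP1 or ATG12. NPTN, a cell adhesion molecule of the immunoglobulin superfamily, was the only UAA transcript among the 10 with the highest RRTS from at least 50 reads. It had 50 reads and an RRTS of 1.80 (1.34 to 2.38) in G418, and no read in either untreated library.

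The other members with the most readthrough reads had an RRTS between 1.07 and 1.46. The metallothionein MT2A had 160 readthrough reads in G418 (RRTS 1.28, 1.09 to 1.497). Its reads may be shared with near-identical metallothionein copies, and its value is uncertain. AKIRIN1 had 152 reads (RRTS 1.08, 0.911 to 1.26) and the histone deacetylase HDAC1 had 132 (1.07, 0.895 to 1.27), and both intervals included 1. SPTSSA, a small subunit of serine palmitoyltransferase, had 131 reads (1.19, 0.996 to 1.41), with 13 in Untreated A and 1 in Untreated B. RNF7, a RING subunit of cullin ubiquitin ligases, had 96 reads (1.46, 1.19 to 1.79), and IER3IP1, an ER protein, had 93 (1.15, 0.930 to 1.41).

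**Figure D2:**
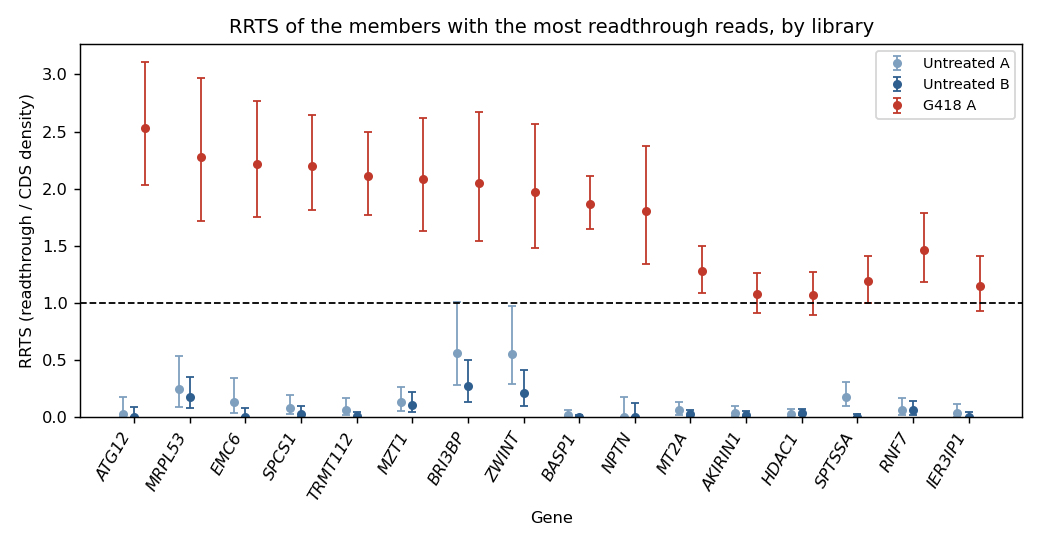
RRTS (readthrough over CDS density) in Untreated A, Untreated B and G418 A for the members with the highest RRTS from at least 50 reads or with the most readthrough reads, with exact 95% Poisson intervals of the readthrough reads as bars and a dashed line at 1. The G418 values run from 1.07 for HDAC1 to 2.53 for ATG12, and the untreated values reach 0.564 in Untreated A for BRI3BP, whose region GENCODE 44 counts as CDS of another transcript over 90 of 93 nt.

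The highest RRTS values of all came from very short regions. SHKBP1 had 34 readthrough reads where 3.82 were expected, an RRTS of 8.90 (6.16 to 12.4) in a region of 18 nt. Only 12 nt of that region were counted, the 3′TC among them. KLHL5 (8.84, 11 reads), GSE1 (8.59, 8 reads), ZCCHC14 (8.33, 11 reads) and PPM1D (7.78, 18 reads) followed, with regions of 18 to 30 nt. The first 4 had no readthrough read in either untreated library. These 5 were the transcripts with the highest RRTS and, apart from PPM1D, were named after their values were seen.

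UGA was the stop codon of 283 of the 404 members, 70.0% (Wilson 95% interval 65.4 to 74.3%), and of 47.3% (45.9 to 48.6%) of the other transcripts. UAG ended 12.6% of members against 21.8% of others, and UAA 17.3% against 31.0%. Read the other way, 10.2% of UGA transcripts were members, against 4.25% of UAG and 4.11% of UAA transcripts, with 7.11% over all. The intervals cover the number of transcripts only, since all of them come from the same G418 library.

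The share of UGA was larger where the members had more reads. It was 56.0% (44.7 to 66.7%) of members with 1 to 4 readthrough reads, 62.7% with 5 to 9, 71.0% with 10 to 19, 87.9% with 20 to 49 and 93.3% (78.7 to 98.2%) of the 30 members with 50 or more. The only members of that last tier without UGA were DBNDD2 (UAG, 74 reads) and NPTN (UAA, 50 reads). Binned instead by the reads expected at the CDS density, UGA made up 54.7% of the members at up to 2 expected reads, against 48.5% of the others there. At 10 to 20 expected reads it made up 84.0% of 75 members against 47.7% of the others, and above 100 all 5 members against 44.6%. The UGA share of the other transcripts stayed between 44.2 and 49.7% in these bins.

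The UAG and UAA members with the most reads had lower read numbers than the UGA ones. DBNDD2 had 74 readthrough reads in G418 (RRTS 1.35, 1.06 to 1.70) and none in either untreated library. LLPH, a nucleolar protein, had 36 reads (2.01, 1.41 to 2.78) and none untreated. IMP3, a U3 snoRNP protein, had 34 (1.04), and the general transcription factor subunit GTF2E2 had 25 (1.18). Among UAA transcripts, CDC27, a core subunit of the anaphase-promoting complex, had 36 reads and an RRTS of 2.77 (1.94 to 3.83). CCDC59 had 41 reads (1.06) and the farnesyltransferase subunit FNTA 28 (1.11). Of these UAG and UAA members, only DBNDD2, LLPH, NPTN and CDC27 had a lower counting limit above 1.

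C at +4 was carried by 138 members, 34.2% (29.7 to 38.9%), and by 20.7% (19.6 to 21.8%) of the others. G at +4 went the other way, with 20.5% of members and 32.6% of others. By RRTS, the share of C was 34.1% of members at 1 to 1.5, 36.5% at 1.5 to 2 and 38.2% at 2 to 3. It was 17.6% of the 17 members at 3 to 5 and 12.5% of the 8 above 5. The excess of C was present behind each stop codon, at 31.4% of UGA members against 18.9% of UGA others, 43.1% against 27.9% for UAG and 38.6% against 18.3% for UAA. For the full 4-nt signal, 15.9% (13.1 to 19.2%) of UGAC transcripts were members, 13.6% of UGAU, 10.0% of UGAA and 6.07% of UGAG. UAAC reached 8.26%, above UGAG, while UAAG had the lowest share at 1.94% (0.987 to 3.78%), or 8 of 412. NPTN is one of those 8.

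Beyond +4 the differences were smaller. In GENCODE 44, 395 of the 404 members and 5112 of the 5276 others were found with the same CDS length and 4-nt signal. Over the 15 nt before and 12 nt after the NTC, the next largest differences were a lower share of C at +9, in 19.7% of members against 27.8% of others, and a lower share of C at +11, in 19.7% against 27.7%. The share of A and U over the 12 nt after the NTC was 52.8 ± 18.5% in members and 47.3 ± 18.8% in others (mean ± SD over transcripts). In the 15 nt before it the values were 53.9 ± 14.5% and 50.1 ± 14.5%. The groups overlapped widely in both.

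The letters UGACUA, searched from the stop codon on the transcript strand only and overlapping every shorter signal of the UGAC kind, are a known readthrough-promoting signal. They began the stop context of 15 transcripts, 0.272% of those matched, of which 3 were members (Wilson interval of the share 7.05 to 45.2%). Of transcripts with UGACU 20.3% were members (26), and 28 of 140 with UGACA. The 3 members, named after their values were seen, are printed for comparison with the contexts above.
GSKIP (chr14:96385682-96385684, plus strand, exon 4 of 4): agagatggacagtcaTGACtacactttttc
PAN2 (chr12:56317609-56317611, minus strand, exon 26 of 26): tcagtgctggcgctcTGACtacccttccca
FUZ (chr19:49807151-49807153, minus strand, exon 11 of 11): ctcaccccacttcttTGACtacctagcagt
GSKIP, an inhibitor of GSK3β, had 64 readthrough reads in G418 and 12 and 4 in the untreated libraries, with an RRTS of 1.09, 0.237 and 0.0528. PAN2, the catalytic subunit of a deadenylase, had 13, 3 and 0 reads, and FUZ, a planar polarity effector, 5, 0 and 0. Of the other 12 transcripts with these letters, 9 had readthrough reads in G418 at an RRTS of 0.0600 to 0.914. Among those were MDH1 (0.793) and LDHB (0.403), whose extended forms are known to carry a peroxisomal targeting signal.

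The readthrough regions of the members were short. Their median was 42 nt (order-statistic 95% interval 39 to 45) and that of the others 69 nt (66 to 72), with a range of 18 to 396 nt among members. The share of transcripts that were members was 14.2% (11.7 to 17.1%) for regions of 18 to 24 nt, 11.1% for 25 to 36 nt, 8.66% for 37 to 60 nt, 5.44% for 61 to 120 nt, 2.14% beyond 120 and up to 240 nt and 1.58% (0.676 to 3.64%) above that. Within each of these length bins UGA transcripts had the largest share of members, from 18.3% at 18 to 24 nt, beside 8.93% for UAG and 11.9% for UAA, to 2.22% in the longest bin. The members with regions beyond 240 nt numbered 5, among them BASP1 and HOXD11. Where a region ends in a 3′TC, the 3′TC is counted whatever the length, and the part of this in the shares was not tested.

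The reads expected in the region at the CDS density, which combine region length with CDS density, separated members from others more widely than length did. The median was 6.35 reads for members and 20.6 for others in G418. The share of members was 18.7% at up to 2 expected reads, 16.3% at 2 to 5, 11.7% at 5 to 10, 7.03% at 10 to 20, 3.25% at 20 to 50, 1.86% at 50 to 100 and 0.631% above 100. A region with few expected reads passes an RRTS of 1 with few reads, and the part of this in the shares was not tested.

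**Figure D3:**
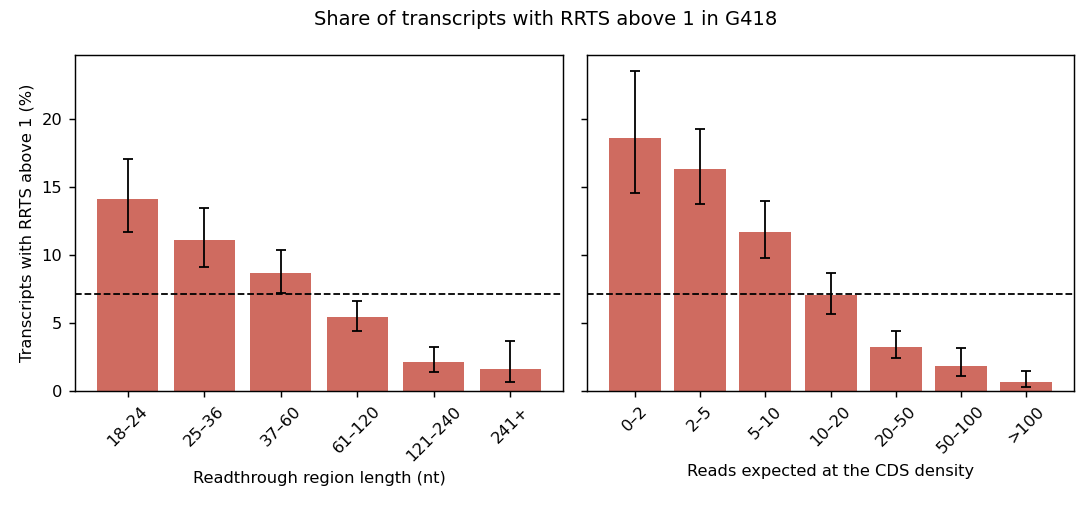
Percentage of transcripts with an RRTS above 1 in G418, by length of the readthrough region (left) and by the reads expected there at the CDS density (right), with Wilson 95% intervals as bars. The dashed line marks the 7.11% over all 5680 transcripts, and the percentage goes from 14.2% in the shortest to 1.58% in the longest regions and from 18.7% at the fewest to 0.631% at the most expected reads.

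CDS length did not order members and others in a stable way. The median CDS was 1950 nt (1746 to 2097) in members and 1440 nt (1404 to 1476) in others, a ratio of 1.35. With members limited to those with at least 10 readthrough reads the ratio turned to 0.898, and with members whose counting interval lay above 1 it was 0.988. The median CDS was 3300 nt for members with 1 to 4 readthrough reads and 516 nt for those with 50 or more. In 5 classes of CDS length, members were 11.1% of the transcripts in the longest, 6.16% in the shortest and as few as 4.73% in the middle one. In the shortest class 23 of the 25 members ended in UGA.

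The CDS density in G418 is the denominator of the ratio that chose the members, so a low value there is favoured by the rule. The members' median CDS density was 22.4, 23.3 and 23.4 RPKM in Untreated A, Untreated B and G418 A, against 39.4, 40.4 and 43.4 RPKM in the others. On densities scaled to library size, the medians hardly differed between the conditions, and a change common to all transcripts would not show. The median log2 ratio of G418 to the untreated mean was 0.02 in members and 0.07 in others, and the CDS density of 2 members (0.495%) was at least 2-fold above the untreated mean, where 1.06% of all transcripts were. Deposited 3′UTR lengths had a median of 1354 nt in members and 904 nt in others.

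The NTC was in the last exon of 96.2% of members and 95.9% of others, and the region crossed an exon junction in 2.79% and 3.48%. UGA was the 3′TC of 43.1% of members and 43.2% of others, UAG of 24.9% and 19.8% (Wilson intervals 20.9 to 29.4% and 18.8 to 21.0%), and UAA of 31.2% and 32.6%. No in-frame stop codon was listed in the 3′UTR of 4 members (0.990%, 0.386 to 2.52%) and of 238 others (4.51%, 3.98 to 5.10%). GENCODE 44 counts part of the region as CDS of another transcript for 8 of 394 members and 157 of 5091 others, 2.03% and 3.08%. Of those, BRI3BP (54 readthrough reads, RRTS 2.05), CALCOCO2 (43, 1.02), NUP62CL (21, 1.54), the apoptosis regulator MCL1 (18, 1.14), IMPDH1 (12, 1.32) and CPSF4 (11, 1.04) had the most reads. In NUP62CL, IMPDH1 and CPSF4 the whole region was so annotated, and in BRI3BP 90 of 93 nt, so reads there cannot be told apart from ordinary translation of another isoform.

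The untreated libraries had no part in the ratio that chose the members, apart from the CDS read minimum, and readthrough was higher on the members there too. Pooled over members, the RRTS was 0.111 (0.101 to 0.122) in Untreated A, from 458 reads, and 0.0690 (0.0631 to 0.0754) in Untreated B, from 494 reads. Pooled over the others it was 0.0143 (0.0139 to 0.0147) and 0.0116 (0.0113 to 0.0119). The members stood 7.77 times above the others in Untreated A and 5.94 times in Untreated B, a mean of 6.85 ± 1.29 (SD, n = 2 libraries). Without the 3 members with the most untreated reads, HOXD11, NAA38 and TAF1D, the mean was 5.71 ± 1.40. The members had fewer expected reads than the others. In G418 the pooled RRTS of all transcripts was 0.586 at up to 2 expected reads and 0.176 above 100. No fold at like expected reads was taken, and the part of this in the fold was not tested.

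The difference was present behind each stop codon. For UGA the pooled RRTS of members and others was 0.115 and 0.0179 in Untreated A and 0.0746 and 0.0135 in Untreated B. For UAG it was 0.0628 and 0.0117, then 0.0487 and 0.0102. For UAA it was 0.114 and 0.0116 in Untreated A but 0.0250 and 0.0102 in Untreated B, from 37 and 13 reads of the members. ZNF155 alone gave 8 of those 37 reads.

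Untreated readthrough also followed the G418 RRTS among transcripts below the limit. From the class with a G418 RRTS above 0 and up to 0.1, through those at 0.1 to 0.25, 0.25 to 0.5, 0.5 to 1 and 1 to 2, to that above 2, the pooled RRTS in Untreated A was 0.00619, 0.0115, 0.0213, 0.0413, 0.101 and 0.174. In Untreated B it was 0.00565, 0.0109, 0.0162, 0.0274, 0.0658 and 0.0917. The share of UGA in the same classes was 33.2, 44.6, 58.6, 64.3, 68.8 and 75.0%. The 1372 transcripts at 0 in G418 did not follow this order, with 0.00739 and 0.00823 and a UGA share of 37.6%. Over the classes above 0, the median expected reads in G418 fell from 55.8 to 3.46. The median region length fell from 103.5 to 30 nt. The classes were not compared at like expected reads, and the part of this in the order was not tested.

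**Figure D4:**
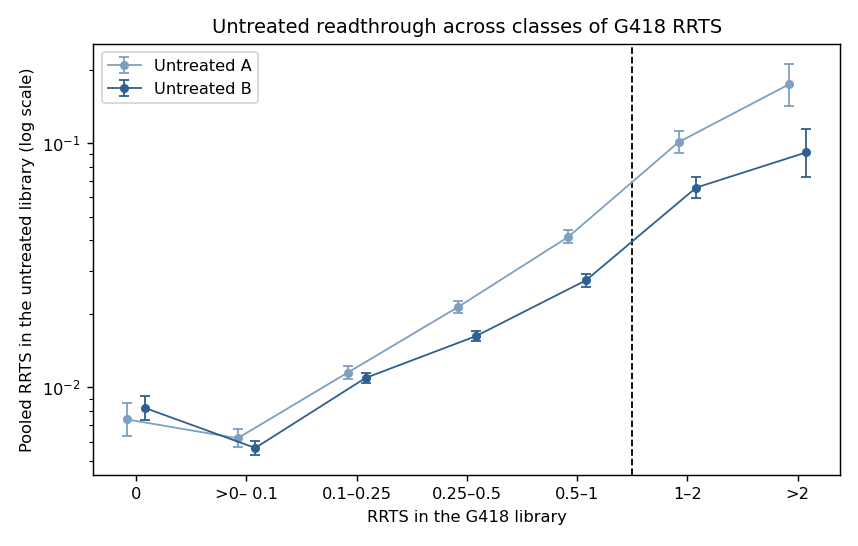
Pooled RRTS in Untreated A and Untreated B (vertical axis, log scale) for transcripts grouped by their RRTS in the G418 library (horizontal axis), with exact 95% Poisson intervals of the pooled reads as bars. The members lie right of the dashed line, and both untreated libraries step up from 0.00619 and 0.00565 in the class above 0 and up to 0.1 to 0.174 and 0.0917 in the class above 2. Between the same 2 classes the median expected reads in G418 fall from 55.8 to 3.46.

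In single untreated libraries most members, like most of the others, had no readthrough read. At least 1 readthrough read was present for 28.5% of members and 23.7% of others in Untreated A, and for 93 of 404 members and 22.3% of others in Untreated B. At an RRTS of 1 the median member would have had 4.69 and 7.78 reads there, and the median of the others 14.96 and 25.2. For 254 members (62.9%) neither untreated library had a read, and this share was not taken over the others. An untreated RRTS above 1 was found for 12 members in Untreated A (2.97%, where 0.634% of all transcripts had one) and for 9 in Untreated B (2.23%, where 0.405% had one). These were 17 members in all (4.21%), and TAF1D, TASOR2, CPNE8 and HLA-G (0.990%) were above 1 in both untreated libraries. The shares of all transcripts above 1 in either or in both were not taken.

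TAF1D, a subunit of the RNA polymerase I selectivity factor, had 23 and 12 readthrough reads in Untreated A and B and 16 in G418, with an RRTS of 5.97, 2.14 and 3.22. Its G418 value lay between both untreated values. TASOR2 had 5, 10 and 4 reads, with an RRTS of 1.82, 2.55 and 1.22. CPNE8, a calcium-dependent phospholipid-binding protein, had 5, 10 and 7 reads, with an RRTS of 1.21, 1.43 and 1.65. HLA-G, a non-classical MHC class I molecule whose reads may be shared with other HLA genes, had 3, 9 and 8 reads, with an RRTS of 1.05, 1.67 and 1.89. In none of these 4 did the G418 value exceed both untreated values beyond its counting interval. The contexts of 3 of them, all UGAC, are printed because they stand apart from the other members in the untreated cells.
TAF1D (chr11:93736161-93736163, minus strand, exon 6 of 6): agaggcctgaaaatgTGACaggatcatgaa
TASOR2 (chr10:5763030-5763032, plus strand, exon 21 of 21): aggagtagctattggTGACtcaactacagc
CPNE8 (chr12:38653882-38653884, minus strand, exon 20 of 20): ttacagactcaaataTGACtgtgctctgaa

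The other members above 1 in an untreated library from at least 3 reads were so in 1 library only. IRF2BP2, ITGAE, ZNF155, PAAF1 and ZC3H7A were above 1 in Untreated A, with 5 to 10 reads, and had 0 to 2 reads in Untreated B. PPM1D, ARID4B, RAB3GAP2 and RNF13 were above 1 in Untreated B, with 4 to 8 reads. For ZC3H7A the untreated RRTS was 2.85 (A) and 0 (B) beside 1.09 with G418, and for ITGAE 1.85 and 0.194 beside 1.92. For each of these 9 the other untreated library lay below 1.

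The members with the most untreated reads included some with only a modest difference in G418. HOXD11, a homeobox transcription factor, had 27 and 57 untreated reads and 79 in G418 over a region of 312 nt, with an RRTS of 0.684, 0.907 and 1.48. NAA38, an auxiliary subunit of the NatC acetyltransferase, had 21, 40 and 47 reads, with an RRTS of 0.581, 0.587 and 1.01. The chromatin-bound protein RCC2 had 6, 22 and 87 reads (0.0714, 0.131 and 1.03), BRI3BP 11, 10 and 54 (0.564, 0.274 and 2.05) and the kinesin KIF22 11, 10 and 29 (0.487, 0.204 and 1.09). For RCC2 the G418 value was many times the untreated ones, while for NAA38 it was 1.01 against 0.581 and 0.587.

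In the 3′UTR after the 3′TC, where at least 30 nt remained, the members' density was 1.89% (1.82 to 1.95%) of their CDS density in G418, and that of the others 0.807%. In the untreated libraries it was 0.317% and 0.243% for members and 0.172% and 0.154% for others.

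By protein class, the members were scattered. The 21 lists, made from gene symbols, held 1035 of the 5680 transcripts and 48 of the members, or 4.64%, against 7.66% of the transcripts in none of them. The median expected reads were 41.5 for transcripts in the lists and 16.2 for those in none. No share was taken at like expected reads, for these groups or for single lists. No cytosolic ribosomal protein (0 of 62), proteasome subunit (0 of 31) or histone (0 of 32) was a member. With up to 3 counts allowed for, shares of up to 4.84%, 9.68% and 9.38% remain possible. The Wilson upper limits were 5.83%, 11.0% and 10.7%. The expected reads of these 3 classes had medians of 307, 104 and 278, far above the 18.97 over all transcripts. Their median RRTS in G418 was 0.116, 0.222 and 0.112, beside 0.184 over all.

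Zinc finger genes had 11 members among 77 transcripts, 14.3% (8.17 to 23.8%), from a median of 7.34 expected reads and a median RRTS of 0.185. ZNF460 (26 readthrough reads, RRTS 1.04), ZNF593 (19, 1.36), ZNF274 (12, 1.19) and ZNF267 (9, 1.36) had the most reads, and all 4 counting intervals included 1. With fewer reads, ZNF430 (8 reads, 6.22, 2.69 to 12.3) and ZNF155 (7 reads, 3.62, 1.46 to 7.47) had intervals above 1, and ZNF430 was named after its values were seen. Of the 10 mitochondrial SLC25 carriers 2 were members, SLC25A24 (35 reads, 1.17) and SLC25A14 (3 reads, 1.38). Selenoproteins, whose mRNAs decode an internal UGA as selenocysteine, had 1 member of 10, SELENOO (7 reads, 1.13), and its stop codon is UAA.

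Secretory pathway, solute carrier and TMEM classes had a few well-covered members, with shares of 3.39 to 5.88%, beside 7.11% over all transcripts. The median expected reads of these classes ran from 14.6 for solute carriers to 55.7 for the ER translocon class. In the class of ER translocon, insertion, glycosylation and signal peptidase proteins 3 of 56 were members, SPCS1, EMC6 and the glycosyltransferase subunit ALG14 (21 reads, 1.11). Among trafficking subunits 6 of 102 were members, led by the SNARE protein STX5, TRAPPC2 (11 reads, 1.09), SEC24D (5 reads, 4.24) and TRAPPC8 (4 reads, 1.71). Solute carriers had 3 of 69, among them the copper importer SLC31A1 (56 reads, 1.17) and SLC27A4 (4 reads, 1.26). TMEM genes had 2 of 59, TMEM263 (37 reads, 2.12) and TMEM259 (14 reads, 1.94).

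With median expected reads of 45.9 to 86.4, 3 mitochondrial lists had shares of 1.72 to 6.67%, beside 7.11% over all transcripts, and 5 members in all. They were MRPL53 of 58 mitochondrial ribosomal proteins, the assembly factor NDUFAF2 (24 reads, 1.24) and the copper chaperone COX17 (16 reads, 1.16) of 86 oxidative phosphorylation proteins, and CHCHD10 (28 reads, 1.06) and the translocase subunit TIMM21 (12 reads, 1.12) of 30 import and cristae proteins. Of 42 proteins of ubiquitin and ubiquitin-like conjugation 3 were members, RNF7, ATG12 and the ATG8 homologue GABARAPL1 (24 reads, 1.12). DNAJB1, a co-chaperone (13 reads, 1.15), was the 1 member of 43 chaperones, and RHOU (22 reads, 1.51) that of 52 small GTPases. The shares of the ubiquitin, chaperone and GTPase lists were 7.14%, 2.33% and 1.92%, at median expected reads of 56.2, 36.4 and 52.6.

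Nuclear and translation classes were near or below the 7.11% over all transcripts. The median expected reads of these classes were higher than the 18.97 over all. They ran from 19.8 for RNA polymerase, general factors and Mediator to 74.7 for the Sm, LSm and snRNP lists. RNA polymerase, general factor and Mediator lists had 4 of 58, GTF2E2, MED4 (24 reads, 2.07), TAF1D and POLR1B (5 reads, 1.21). Sm, LSm and snRNP lists had 3 of 44, the LSm-domain protein NAA38, U2AF1 (44 reads, 1.11), which has a near-identical copy and is uncertain, and PRPF18 (6 reads, 1.46). The replication list had POLE4 (17 reads, 1.54) of 37, the initiation factors EIF2B2 (30 reads, 1.34) of 44 and the aminoacyl-tRNA synthetases the mitochondrial EARS2 (7 reads, 1.29) of 33. Only for ATG12, SPCS1, EMC6, MRPL53, RNF7, MED4, TMEM263, TMEM259, TAF1D, SEC24D, ZNF430 and ZNF155 among the members named with their class was the lower counting limit above 1.

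**Figure D5:**
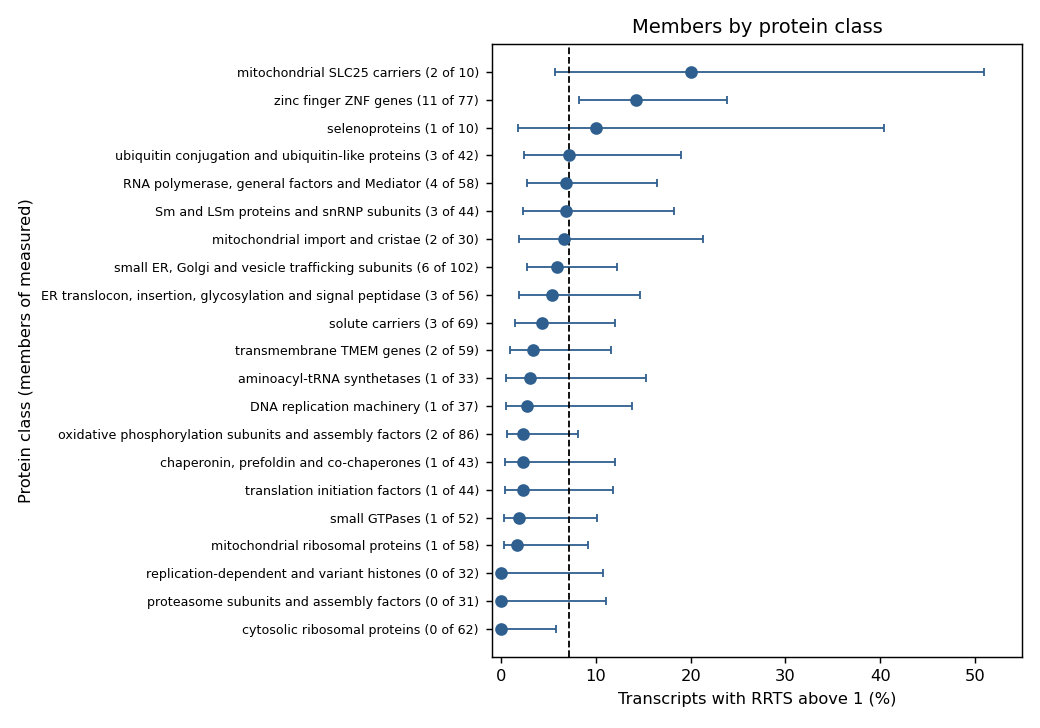
Percentage of transcripts with an RRTS above 1 in G418 in each of 21 protein classes (points), with Wilson 95% intervals as bars and the number of members of the number measured beside each name. The dashed line marks the 7.11% over all transcripts, and the values run from 0 of 62 cytosolic ribosomal proteins to 11 of 77 zinc finger genes and 2 of 10 SLC25 carriers. The median expected reads of the classes range from 7.34 for zinc finger genes to 307 for cytosolic ribosomal proteins.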

How the data were processed

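The libraries, 2 untreated and 1 with G418, were made by the authors from HEK293T lysates. Per the study's methods, reads were aligned to hg38 with STAR, the primary alignment was kept, and reads were assigned to 1 transcript per gene of GENCODE 30. Fragments of 28 to 35 nt were then used for its analysis. CASAVA 1.8 is listed in the submitters' processing notes. The authors deposited whole-number CDS counts, RPM values and RPKM densities by region, and the RRTS, a ratio of readthrough to CDS density. In the deposited CDS length 33 nt at the ends are left out (added back here), and in the readthrough density the first 6 nt. A signed 5′UTR density column was not used.

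Here, readthrough and CDS reads were recovered as RPM over the value of 1 read; 100% of readthrough values were whole within 0.01. Expected reads are CDS reads per nucleotide times the region's counted length, and a pooled RRTS is the sum of reads over the sum of expected reads. Intervals are exact Poisson for reads, Wilson for shares and order-statistic for medians, at 95%. They cover counting error only, and a count of 0 allows up to 3 counts. The Poisson intervals of an RRTS take the expected reads as exact. They leave out the counting error of the CDS reads, which were as few as 102 for a member in G418, and so are too narrow. The calculations ran in Python 3.11.15 with SciPy 1.17.1 and were checked on simulated data. Stop contexts, coordinates and exons come from GENCODE 44 transcripts matched by identifier, CDS length and 4-nt signal.

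Members needed a mean of at least 128 CDS reads. They and the protein class lists were chosen with earlier results of these data known. Named members have the highest RRTS from at least 50 reads, the most readthrough reads (of all, per stop codon, per class up to 4, or untreated), an RRTS nearest to 1 from at least 20 reads, an RRTS above 1 in an untreated library from at least 3 reads, or a region annotated as CDS. Others are said to be named after their values were seen, and 1 gene that the rule names is not reported here. The study calls its replicate libraries biological replicates, without saying whether the untreated ones came from separate cultures. Alternatives changed the count minimum, region length, read minimum, threshold, families and libraries.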

Additional observations from a re-analysis of the deposited data

How the results depend on the processing

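The number of members followed the limits. It was 112 with a minimum of 500 mean CDS reads, 667 with a minimum of 20, 125 with regions of at least 60 nt, 203 with at least 10 readthrough reads, 81 with a lower Poisson limit above 1 and 80 with an RRTS above 2. The excess of UGA (22.8 points as reported) was 28.5 points with regions of at least 60 nt, 32.1 with at least 10 readthrough reads and 31.8 with a lower Poisson limit above 1. The excess of C at +4 (13.5 points) was 20.8 with the minimum of 500 CDS reads. It was lower, though within its interval, at 9.36 with a lower Poisson limit above 1 and 9.75 with an RRTS above 2. The ratio of median region lengths (0.609) was 0.524 with the minimum of 500 CDS reads, 0.653 with at least 20, 0.784 with regions of at least 60 nt, 0.727 with at least 10 readthrough reads, 0.545 with a lower Poisson limit above 1 and 0.455 with an RRTS above 2. The ratio of median CDS lengths (1.35) was 1.48 with at least 500 CDS reads, 1.16 with at least 20 and 1.65 with an RRTS above 2. It turned to 0.898 with at least 10 readthrough reads and to 0.988 with a lower Poisson limit above 1, and the cause was not tested. The untreated fold (6.85) was 8.22 with a lower Poisson limit above 1 and 9.39 with an RRTS above 2. Without Untreated A or without Untreated B, members numbered 434 or 368 and the fold was 5.84 or 7.75. Recovered reads in place of the deposited counts, leaving out transcripts without an in-frame 3′UTR stop or multi-copy families (which held no member, and did not include MT2A, HLA-G or U2AF1), and, chosen after seeing the data, leaving out regions annotated as CDS, the 3 members with the most untreated reads or those above 1 in an untreated library kept the number of members within 1.5 times and every other value within its interval, or within 1 SD for the untreated fold. No paired analysis was possible because the groups share only the letter A and the G418 group has 1 library.

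With a median of 10 readthrough reads and 1 G418 library, single members near the limit, and the spread between G418 cultures, cannot be judged.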
